A study of Homo sapiens with 4 samples.

Results

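Probes for the replication-dependent and variant histone genes were compared across 4 cultures of Nalm-6, a human pre-B leukaemia cell line, with 1 array per culture. Members were taken by name: every probe whose RefSeq accession belongs to a gene with a current symbol starting with H1-, H2AC, H2BC, H3C, H4C, H2AZ, H3-3 or MACROH2A. These were 96 probes for 76 genes, of 41000 probes on the array and 18203 genes with a matched symbol. Of these, 76 probes for 65 genes represented the clustered genes (H1-1 to H1-6 and the H2AC, H2BC, H3C and H4C genes), and 20 probes for 11 genes represented variants. The members included 2 transcribed pseudogenes, H2BC20P and H1-9P. The reference table listed 80 protein-coding genes that fit these names, and 74 of them had a probe.

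The cultures were wild-type cells (WT), cells with both alleles of ARP5 disrupted (Arp5 KO), cells with ARP8 knocked out (Arp8 KO), and a culture labelled Arp8 OE. ARP5 (symbol ACTR5) and ARP8 (ACTR8) encode actin-related proteins of the INO80 chromatin remodeling complex. The treatment protocol gave heme at 20 uM for 12 hours. Titles, protocol and series design name heme for every culture, but the treatment entry of both knockouts says no heme, as does the sample source of Arp5 KO (that of Arp8 KO names heme), so that genotype and treatment cannot be told apart for the knockouts. Each knockout is given as 1 cell line. The study describes slightly slower growth of its Arp5 KO line, and cites its authors' earlier report that conditional loss of Arp8 was lethal to cells. With 1 array per culture there was no test, and each difference is one between 2 arrays.

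The nucleosome wraps DNA around core histones H2A, H2B, H3 and H4, and the linker histone H1 binds outside the core. Replication-dependent histone genes lie in clusters, are transcribed in S phase with the coactivator NPAT, and give mRNAs that end in a stem-loop bound by SLBP in place of a poly(A) tail. Variant histones such as H3.3, H2A.Z and macroH2A come from scattered genes with polyadenylated mRNAs made throughout the cell cycle, and INO80 is known for acting on nucleosomes that hold H2A.Z. The RNA was labelled with the Quick Amp kit, which primes from poly(A) with oligo(dT), so a signal from a clustered gene is not the total mRNA of that gene, and the part of tail length in the differences below was not tested.

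Promoter sequences show how the classes differ in their regulatory DNA. RefSeq promoters of build GRCh38.p14, running from 250 bases before to 50 bases after the start, were matched for 68 of the 76 genes. Among those with no match were H4C1, H4C3, H2AC12, H3C11, H3C12, H2BC20P and H1-9P. The 200 bases before the start are printed for 4 genes: H2BC21, which had the probe with the largest difference on the array labelled Arp8 OE, H4C9, an H4 gene higher on that array, H4C4, the lowest clustered gene in Arp8 KO, and H2AZ1, a variant. Capitals mark CCAAT (the site of NF-Y), the TATA box TATAAA and the octamer ATTTGCAT (the site of POU-domain OCT factors) on either strand, and none of these motifs overlapped another here. The stretches lie at chr1:149886683-149886882 (minus strand) for H2BC21, chr6:27139082-27139281 (plus strand) for H4C9, chr6:26189113-26189312 (minus strand) for H4C4 and chr4:99950276-99950475 (minus strand) for H2AZ1.
H2BC21: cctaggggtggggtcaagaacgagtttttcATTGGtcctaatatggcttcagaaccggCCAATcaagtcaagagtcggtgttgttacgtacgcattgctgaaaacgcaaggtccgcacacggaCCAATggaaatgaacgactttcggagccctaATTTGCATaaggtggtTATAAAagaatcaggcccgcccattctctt
H4C9: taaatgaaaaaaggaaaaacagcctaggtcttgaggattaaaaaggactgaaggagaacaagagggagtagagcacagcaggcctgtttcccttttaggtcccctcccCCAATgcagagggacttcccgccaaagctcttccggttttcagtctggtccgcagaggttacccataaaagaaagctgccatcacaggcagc
H4C4: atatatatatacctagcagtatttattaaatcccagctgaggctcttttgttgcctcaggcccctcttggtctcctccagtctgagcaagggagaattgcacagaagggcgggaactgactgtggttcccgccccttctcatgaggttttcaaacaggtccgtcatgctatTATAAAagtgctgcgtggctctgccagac
H2AZ1: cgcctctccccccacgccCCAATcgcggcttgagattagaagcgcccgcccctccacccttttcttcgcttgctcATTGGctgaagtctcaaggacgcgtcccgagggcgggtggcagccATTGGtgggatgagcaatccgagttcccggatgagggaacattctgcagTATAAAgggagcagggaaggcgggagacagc

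H2BC21 held 3 CCAAT matches, the octamer 46 bases before the start and TATAAA 30 bases before it. H4C4 held TATAAA 29 bases before its start, with no CCAAT or octamer in the printed stretch. H4C9 held 1 CCAAT match and no TATAAA in these letters. H2AZ1 held TATAAA 31 bases before its start and 3 CCAAT matches, so the letters of these motifs were not limited to clustered genes.

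Over the 300-base promoters, searched on both strands, CCAAT was found for 50 of 59 clustered genes (84.7%) and for 35.7% of the 27305 promoters in the table. All 6 H1, 14 H2A, 17 H2B and 10 H3 promoters held it, against 3 of 12 H4 promoters. The octamer was found in 25 clustered promoters (42.4%) against 1.8% of all promoters. It was in 11 of 14 H2A and 13 of 17 H2B promoters, in 1 of 10 H3 promoters and in none of the 6 H1 or 12 H4 promoters. TATAAA was in 39 of 59 clustered promoters (66.1%), against 12.0% of all promoters. Among 9 variant promoters, 6 held CCAAT, 3 held TATAAA and 1 held the octamer. A match is a run of letters and not a measured binding site. Head-to-head H2A and H2B genes, 10 pairs with starts 194 to 248 bases apart, share most of their window. The same site can therefore count for both classes, and the H2A and H2B shares are not separate.

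**Figure D1:**
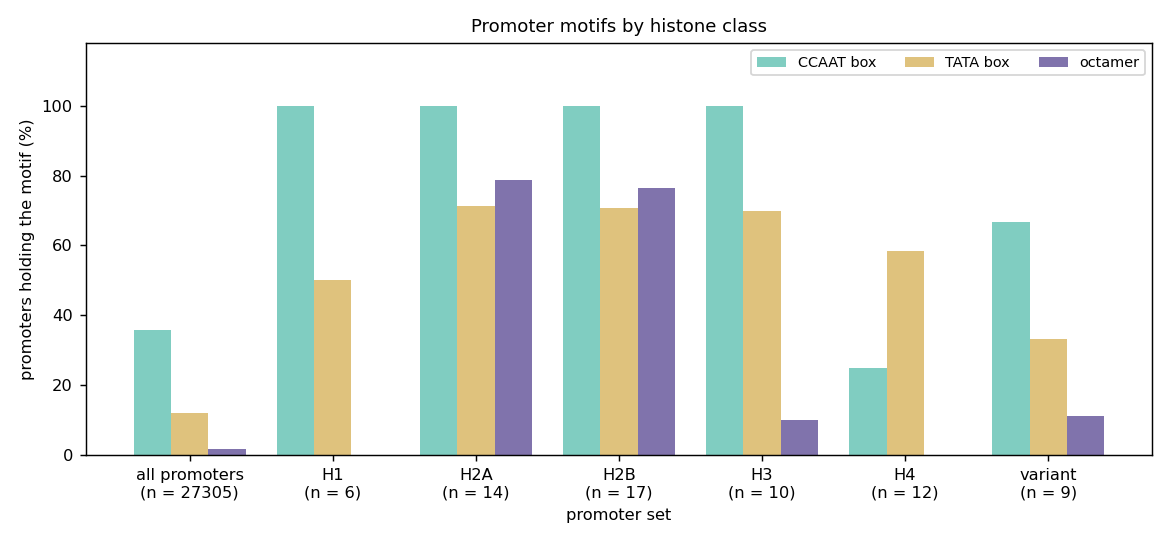
Share of 300-base promoters that hold each motif on either strand, in percent, for all promoters in the table, the clustered genes by class and the variants. The octamer stands at 78.6% for H2A and 76.5% for H2B and at 0 for H1 and H4, and CCAAT is at 100% for H1, H2A, H2B and H3 and found in 3 of 12 promoters for H4. Head-to-head H2A and H2B genes share most of their window.

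Values are given as scaled signal, the background-subtracted signal of a probe divided by the 75th percentile of its array, and differences as log2 of the ratio of 2 scaled signals. Where 4 scaled signals of a probe are listed, they are in culture order: WT, Arp5 KO, Arp8 KO, array labelled Arp8 OE. A probe entered a comparison if either array showed it well above background. On each array 69 of the 76 clustered probes were well above background, and 16 of 20 variant probes (15 on the array labelled Arp8 OE). Not above background on any array were the probes of H1-1, H1-6, H2AC1, H2BC1, H4C7, H4C16 and 1 of 3 probes of H2BC21, and variants that included H1-8, H1-9P and MACROH2A2. H1-6, H2AC1, H2BC1 and H1-8 are known as germ-cell histones. Every member was printed as 1 spot, and no member spot was saturated or an outlier. Probes printed 10 times on the array gave a median SD of 0.056 to 0.062 log2 within an array, which makes the technical SD of a difference 0.083. The scanner software's own error estimate was larger, 0.144 log2 per signal for a bright probe such as that of H1-2. Neither covers the spread between cultures. The sequences of the probes were not used here, and histone genes of a class are nearly identical in places, so a signal may hold that of a sister gene.

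The targeted genes were read first. ACTR5 had scaled signals of 0.914, 0.0473, 0.846 and 0.754 in culture order, so it was low in Arp5 KO alone. The 2 ACTR8 probes had 0.493 and 1.19 in WT and 0.342 and 0.740 in Arp8 KO, log2 differences of -0.53 and -0.68. ACTR8 signal was thus lower in the culture labelled Arp8 KO but not lost, so it does not show the knockout as ACTR5 does, and where these probes lie relative to the disrupted part is not known here. The array labelled Arp8 OE differed from WT by 0.02 and -0.01 at these probes, that is, by less than the technical SD. The overexpression in that label was therefore not seen in ACTR8 signal. All 12 pre-B marker genes were well above background on every array. Each array also showed 1 of 5 T-cell, 2 to 3 of 5 myeloid and 0 to 1 of 3 erythroid markers, not always the same genes. The T-cell gene was CD3E in Arp8 KO and CD8A on the other arrays. The summed myeloid signal was 0.684, 0.812, 2.86 and 0.927 in culture order, against 320 to 412 for the pre-B markers. Its high value in Arp8 KO was that of CD33, whose probes had 0.328 and 0.184 in WT and 1.72 and 0.952 in Arp8 KO. Pre-B markers differed in Arp8 KO too, with CD22 at -2.58, VPREB3 at -2.39, VPREB1 at -1.26 and DNTT at 1.78. The part of either in the histone differences was not tested.

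The clustered histones stood highest on the array labelled Arp8 OE. Of 69 clustered probes compared with WT, 66 were higher and 3 lower, with a median log2 difference of 0.56 (1.47-fold). Of all 24177 probes compared, 12095 were higher, and their median was 0.00. The range over the clustered probes was -0.25 to 1.89. By class, the median was 0.30 for H1 (4 of 4 probes higher), 0.63 for H2A (19 of 19), 0.57 for H2B (19 of 19), 0.38 for H3 (14 of 15) and 0.61 for H4 (10 of 12).

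Over 2-fold higher were 5 clustered probes (7.25%), against 2.96% of all probes, and none was over 2-fold lower (2.15% of all). At 1.5-fold, 31 clustered probes (44.9%) were higher, against 7.93% of all, and none was lower, against 5.67%. At 2 technical SDs, which is a log2 difference of 0.165, 61 clustered probes were higher, against 31.2% of all probes, and 1 was lower, against 30.6%.

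The 5 probes past 2-fold were 3 H4 probes, 1 H2A probe and 1 H2B probe. H4C1 had scaled signals of 0.577, 0.630, 0.563 and 1.56 in culture order, the last 1.43 above WT on the log2 scale. H4C6 had 1.09, 1.41, 1.17 and 2.39 (a log2 difference of 1.14), and H4C9 had 1.41, 1.86, 1.48 and 3.06 (1.13). In the knockouts the log2 differences of these 3 probes from WT lay between -0.03 and 0.40. H2AC8 had 0.557, 0.582, 0.597 and 1.12, a log2 difference of 1.01. H2BC21 differed by 1.89 at its probe A_24_P148321 and by 0.48 at its probe A_24_P156911. The first had scaled signals of 0.103, 0.0918, 0.112 and 0.382, and a neighbouring spot within 20 pixels was over 2-fold brighter on that array than on any other. The neighbour's part in this value was not tested. The H2AC8 probe lay beside a spot bright in Arp8 KO alone. Without probes that lie beside a spot bright on 1 array alone, 3 clustered probes were over 2-fold higher.

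The 3 clustered probes lower on the array labelled Arp8 OE were H3C3 (29.1 in WT and 24.5 there, a log2 difference of -0.25), H4C4 (8.10 and 7.40, -0.13) and H4C2 (46.8 and 44.4, -0.08). H2BC12 was the lowest H2B probe, at 0.07, and lay beside a spot bright in WT alone. Size of difference and brightness of the probe went together: 61 clustered probes with a mean log2 scaled signal up to 3 had a median difference of 0.59, and 8 brighter ones had 0.10, between -0.25 and 0.38. Pearson's r over the 69 probes was -0.58 and Spearman's rho -0.48, given as a description since these probes share 2 arrays and may overlap in sequence. Over all probes above background on every array, the medians were 0.04 above that signal (2916 probes) and 0.00 up to it (18867 probes).

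**Figure D2:**
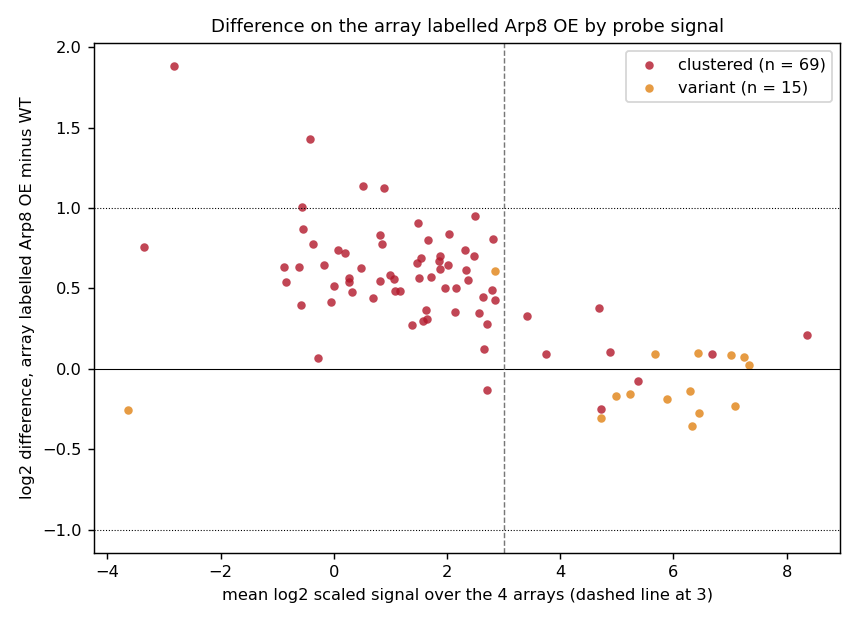
Log2 difference between the array labelled Arp8 OE and WT for each histone probe well above background on both, against its mean log2 scaled signal over the 4 arrays; dotted lines mark 2-fold. The 61 clustered probes left of the dashed line have a median of 0.59 and the 8 to its right 0.10, where 13 variant probes have -0.16.

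Variant histones showed no such rise on the array labelled Arp8 OE, where more of their probes were lower than higher. Of 16 variant probes compared, 6 were higher and 10 lower than in WT. Their median was -0.17, which lies 0.72 below the clustered median. At 2 technical SDs, 8 of the 16 were lower, against 30.6% of all probes, and 1 was higher, against 31.2%. Several of these probes share a gene, so the counts are not counts of separate genes. Since 13 variant probes were brighter than a mean log2 signal of 3 and only 8 clustered probes were, the comparison at like brightness rests on few probes: -0.16 for those 13 variants and 0.10 for those 8 clustered probes. The part of brightness in the difference between variants and clustered genes was not tested.

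**Figure D3:**
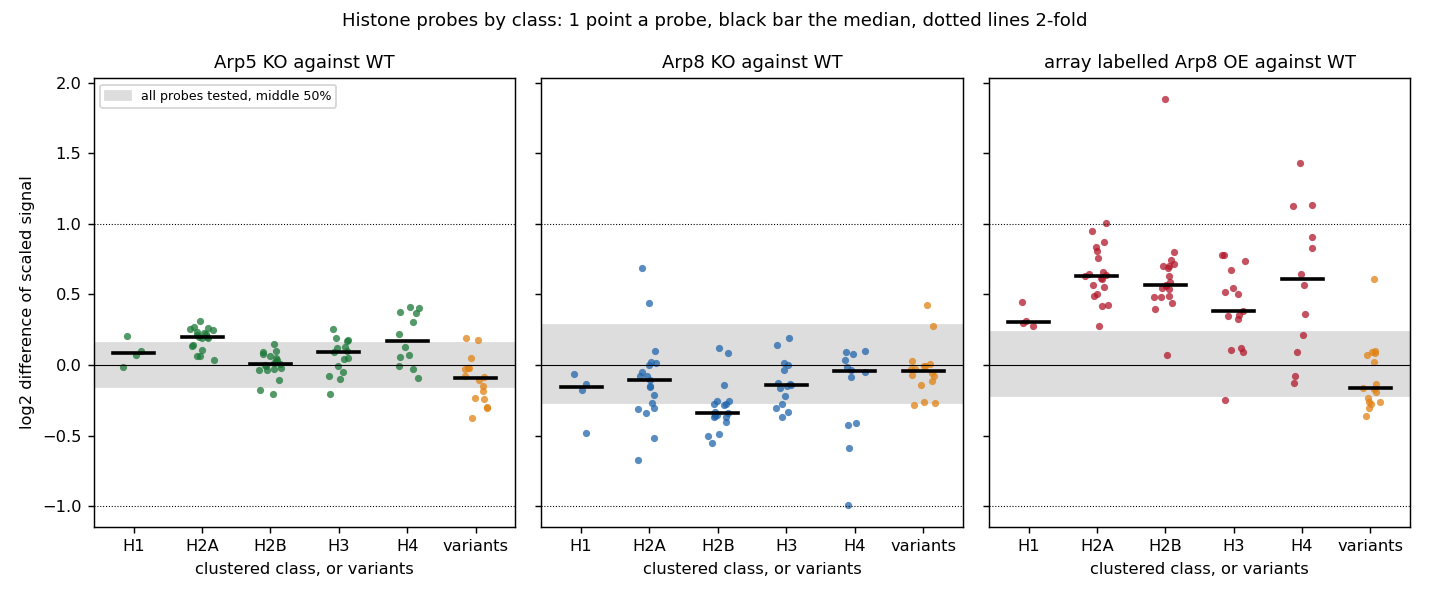
Log2 difference from WT of every histone probe compared, by class, in the 3 other cultures; black bars are medians, the grey band is the middle 50% of all probes and dotted lines mark 2-fold. On the array labelled Arp8 OE the class medians lie between 0.30 and 0.63 and the variants at -0.17, and in Arp8 KO the H2B probes lie lowest at -0.34.

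In Arp8 KO the clustered histones were mostly lower than in WT, by less than 2-fold. The median log2 difference was -0.16 (1.12-fold lower), 53 of 69 probes were lower and 16 higher, and 47.3% of all 24578 probes were lower, with a median of 0.03. The range was -0.99 to 0.68. None passed 2-fold, against 3.37% of all probes higher and 4.35% lower. At 1.5-fold, 1 was higher and 3 were lower (4.35%), against 10.0% and 11.2% of all probes. At 2 technical SDs, 34 clustered probes (49.3%) were lower, against 32.0% of all, and 3 (4.35%) were higher, against 35.3%.

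The lowest was H4C4, with scaled signals of 8.10, 7.59, 4.09 and 7.40 in culture order, so that Arp8 KO stood alone at 1.98-fold below WT. Next came H2AC4 (0.970, 1.12, 0.610 and 1.29, a log2 difference of -0.67) and H4C2 (46.8, 45.9, 31.1 and 44.4, -0.59). At the other end both probes of H2AC19 were higher in Arp8 KO, by 0.68 and 0.44, and these were the 2 highest clustered probes of the comparison. Its brighter probe had scaled signals of 3.10, 3.24, 4.98 and 5.54. The other probe of H2AC19 lay beside a spot bright in Arp8 KO alone. H2AC18, a near-identical copy of H2AC19, may add to both signals. H3C13 came next, at 0.19 in 1 probe and 0.00 in the other.

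By class, H2B was lowest in Arp8 KO, with a median of -0.34 and 17 of 19 probes below WT. H1 was at -0.16 (4 of 4 below), H3 at -0.14 (11 of 15), H2A at -0.11 (13 of 19) and H4 at -0.04 (8 of 12). By place, 54 probes of the large cluster on chromosome 6 had a median of -0.25, and 15 of the smaller groups on chromosome 1 had 0.00, but H2B did not follow this split. In Arp5 KO the same 2 groups had 0.09 and 0.18, and on the array labelled Arp8 OE 0.57 and 0.56. In Arp8 KO the H2A median was -0.24 over 12 probes of chromosome 6 and 0.004 over 7 of chromosome 1, and the H3 median -0.16 over 12 and 0.15 over 3. The H2B median was -0.33 over 15 probes of chromosome 6 and -0.41 over 4 of chromosome 1, which were H2BC20P at -0.50, H2BC26 at -0.48 and H2BC21 at -0.34 and 0.12. The split by chromosome was chosen after the values were seen.

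In Arp5 KO the clustered histones lay close to WT. The median was 0.09 (1.07-fold), 51 of 69 probes were higher and 18 lower, and 50.7% of all 24285 probes were higher, with a median of 0.00. None passed 2-fold (1.69% of all probes were higher and 2.01% lower) and none passed 1.5-fold (4.15% and 4.69%). At 2 technical SDs 24 clustered probes (34.8%) were higher, against 24.0% of all, and 3 (4.35%) were lower, against 23.9%. H2A stood apart from its partner H2B: all 19 H2A probes were above WT, between 0.04 and 0.31 with a median of 0.20, while 10 of 19 H2B probes were, between -0.20 and 0.15 with a median of 0.005. H4 was at 0.17 (9 of 12 higher), H3 at 0.09 (10 of 15) and H1 at 0.09 (3 of 4).

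The highest clustered probes in Arp5 KO were all H4. H4C11 had scaled signals of 3.37, 4.48, 3.34 and 5.28 in culture order (a log2 difference of 0.41 in Arp5 KO). H4C9 was at 0.40 and H4C12 at 0.37. The lowest were H3C3 at -0.20, H2BC12 at -0.20 and the A_24_P148321 probe of H2BC21 at -0.17. H3C3 and H2BC12 were also among the 4 lowest on the array labelled Arp8 OE, and since both comparisons use the WT array, a high WT value enters both. The H2BC12 probe lay beside a spot bright in WT alone, whose part was not tested.

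**Figure D4:**
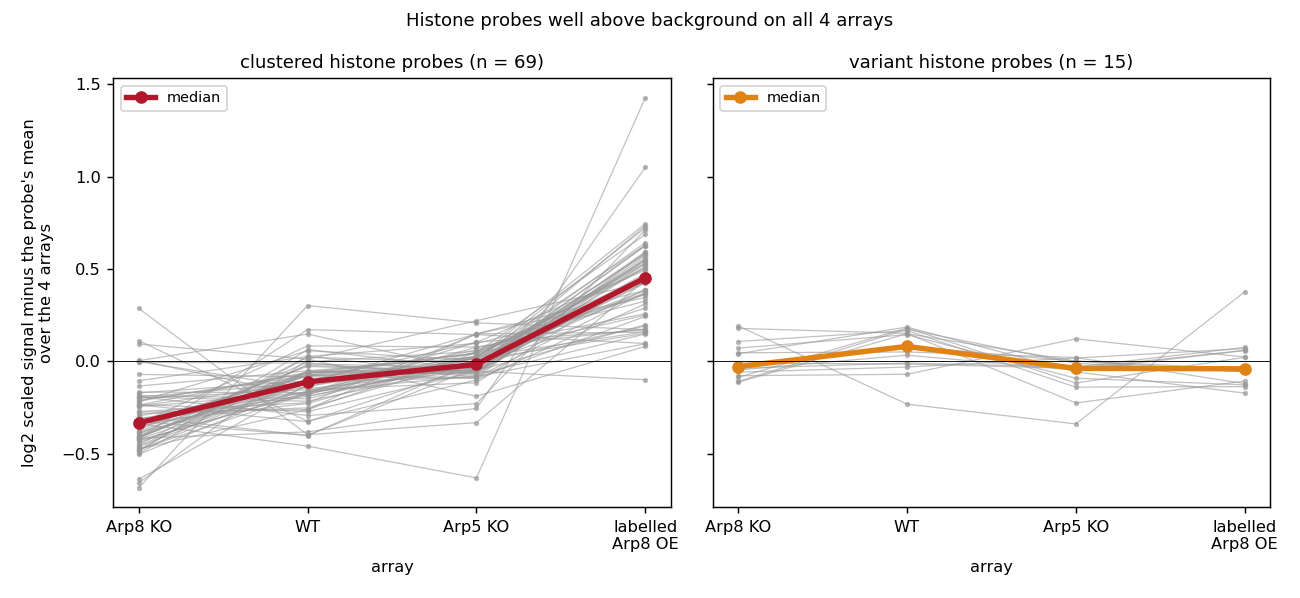
Log2 scaled signal of each histone probe well above background on all 4 arrays, less the mean of that probe, with the median of the 69 clustered and 15 variant probes as a thick line. Among clustered probes 65 are highest on the array labelled Arp8 OE and 52 lowest in Arp8 KO, and the variant line stays near 0.

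The clustered probes were also ordered over the 4 arrays. The array labelled Arp8 OE was highest for 65 of 69 (94.2%), against 25.6% of the 21783 probes well above background on all arrays. Arp8 KO was lowest for 52 (75.4%), against 28.7%. Both held for 50 (72.5%), against 9.94%. The full order Arp8 OE, Arp5 KO, WT, Arp8 KO held for 39 (56.5%), against 4.25%. That order is the order of the clustered medians given above. It was chosen after the values were seen, so these shares do not test it. Of 15 variant probes, 8 were highest in WT (53.3%, against 24.1% of all probes) and 6 lowest in Arp5 KO (40.0%, against 17.8%). Many of these variant probes share a gene, with 5 of H3-3A, 3 of H3-3B and 3 of H2AZ1, so they do not count as separate genes. Since clustered probes may overlap in sequence and come from the same 4 RNA samples, they do not count as separate observations of the order.

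Between Arp8 KO and the array labelled Arp8 OE, with no WT array involved, the median of the clustered probes was -0.82 and that of the variants -0.06. Of 69 clustered probes 15 (21.7%) were over 2-fold lower in Arp8 KO, against 3.78% of all probes. These were H2AC4, H2AC12, H2AC15, H2AC16, H2BC5, H2BC7, H2BC9, H2BC13, H2BC17, H2BC21, H2BC26, H3C12, H4C1, H4C6 and H4C9. H2AC16 was at -1.38, with scaled signals of 0.632, 0.698, 0.443 and 1.16 in culture order. At 1.5-fold 49 (71.0%) were lower, against 9.44%. Between Arp8 KO and Arp5 KO the clustered median was -0.33 and the variant median 0.03, and between Arp5 KO and the array labelled Arp8 OE the clustered median was -0.47 and the variant median 0.02.

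Head-to-head pairs let H2A and H2B be compared at one place in the genome. RefSeq starts gave 10 pairs of an H2A and an H2B gene pointing away from each other, 194 to 248 bases apart, and 9 had both genes above background. In Arp5 KO the H2A gene was above its H2B partner in 8 of 9 pairs, with a median difference of log2 differences of 0.17 (from -0.04 to 0.36). In Arp8 KO this held in 8 of 9 pairs too, with a median of 0.15 (-0.03 to 0.65). There, H2AC20, H2AC15 and H2AC11 stood above their partners by only 0.075, 0.067 and 0.05, less than the technical SD of 0.083. On the array labelled Arp8 OE it held in 5 of 9, with a median of 0.05 (-0.83 to 0.61). The -0.83 came from H2AC20 and H2BC21. The H2BC21 mean of 1.18 there includes the probe at 1.89 that lies beside a spot bright on that array alone, and its other compared probe was at 0.48. In the pair of H2AC8 and H2BC8, H2AC8 was at 0.10 and H2BC8 at -0.55 in Arp8 KO, the upper end of the Arp8 KO range. This pair also gave the 0.61 on the array labelled Arp8 OE. The H2AC8 probe is the one beside a spot bright in Arp8 KO alone, whose part was not tested. In the pair of H2AC11 and H2BC11 the 2 were at -0.31 and -0.36. Both knockouts are set against the same WT array, so the pattern in the 2 of them is not seen independently. Pairs were chosen after the values were seen.

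**Figure D5:**
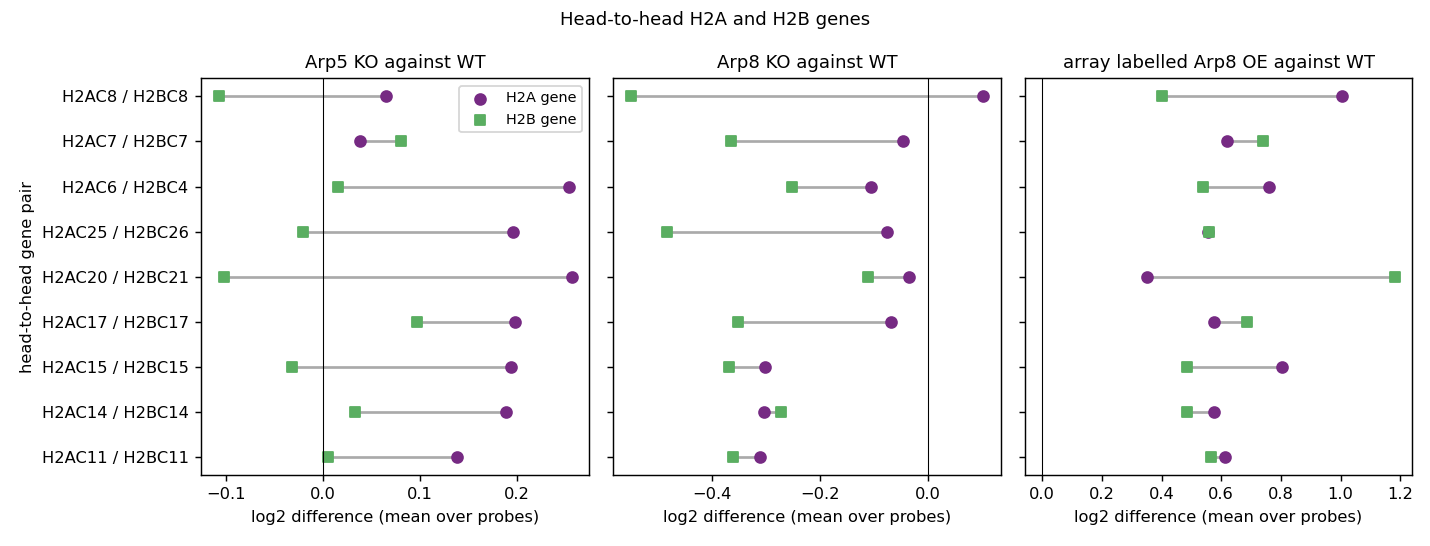
Log2 difference from WT of the H2A gene (circle) and the H2B gene (square) of 9 head-to-head pairs, each the mean over the compared probes of the gene; the 3 panels have different horizontal scales. The circle lies right of the square in 8 of 9 pairs in each knockout and in 5 of 9 on the array labelled Arp8 OE. Some pairs differ by less than the technical SD of 0.083. The H2AC8 probe lies beside a spot bright in Arp8 KO alone, and 1 H2BC21 probe beside a spot bright on the array labelled Arp8 OE alone.

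Promoter motifs were set beside these values by gene. On the array labelled Arp8 OE, 23 clustered genes with the octamer had a median of 0.60 and 30 without it 0.49, and genes with and without TATAAA were at 0.57 and 0.59. In Arp8 KO the medians were -0.26 with the octamer and -0.14 without it, and in Arp5 KO 0.08 for both. The widest gap in Arp5 KO was at CCAAT, with 0.075 over 46 genes that held it and 0.217 over 7 without it; the same groups had -0.17 and -0.05 in Arp8 KO and 0.57 each on the array labelled Arp8 OE. The ranges with and without each motif overlapped in all 3 comparisons. Head-to-head genes share most of their window, so their promoters do not count as separate.

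In the knockouts most variant probes were below WT. In Arp5 KO 3 of 16 variant probes were higher and 13 lower (81.2%, against 49.3% of all probes), with a median of -0.09. At 2 technical SDs 2 were higher (12.5%, against 24.0% of all probes) and 6 lower (37.5%, against 23.9%). In Arp8 KO 4 were higher and 12 lower, with a median of -0.04, and at 2 technical SDs 2 were higher (12.5%, against 35.3%) and 3 lower (18.8%, against 32.0%). No variant probe passed 2-fold in any comparison with WT. Of all probes, between 1.69% and 4.35% did so in a given direction, so none among 16 probes is near that share. As 5 of the variant probes were of H3-3A, 3 of H3-3B and 3 of H2AZ1, these counts are not counts of separate genes. The clustered median lay 0.185 above the variant median for Arp5 KO, and the same subtraction gave -0.12 for Arp8 KO.

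Among variants, H3.3 comes from 2 genes, H3-3A and H3-3B, that code for the same protein. The 5 H3-3A probes stayed between -0.08 and 0.19 in Arp5 KO, between -0.08 and 0.01 in Arp8 KO and between 0.02 and 0.10 on the array labelled Arp8 OE. All 3 H3-3B probes were below WT on every array, from -0.31 to -0.24 in Arp5 KO, from -0.14 to -0.06 in Arp8 KO and from -0.36 to -0.27 in the culture labelled Arp8 OE. The brightest H3-3B probe had scaled signals of 96.9, 82.3, 92.1 and 80.2 in culture order. In all 3 probes the signals of WT and Arp8 KO stood above those of the other 2 cultures. The probe of H3-5, a copy of H3-3B outside the naming rule, gave -0.41, -0.09 and -0.31, and may share signal with it.

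H2A.Z, the variant that INO80 is known to act on, was slightly lower than in WT on all 3 arrays. The 3 H2AZ1 probes were at -0.30 to -0.15 in Arp5 KO, -0.28 to -0.26 in Arp8 KO and -0.23 to -0.16 in the culture labelled Arp8 OE. The brightest had scaled signals of 154.0, 135.5, 126.6 and 131.3, so WT alone stood high. H2AZ2 had 82.7, 78.3, 76.7 and 75.3 at its bright probe (-0.08, -0.11 and -0.14), and its dim probe gave -0.38, 0.03 and -0.26. MACROH2A1, which codes for a variant with a large extra domain, had 32.7, 32.1, 32.6 and 29.1, with WT and both knockouts within the technical SD and the array labelled Arp8 OE at -0.17.

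H1-10, a linker histone outside the clusters, was the variant with the largest difference. It had scaled signals of 6.12, 5.68, 8.21 and 9.33 in culture order, that is, log2 differences of -0.11, 0.42 and 0.61. It was the only variant probe past 1.5-fold on the array labelled Arp8 OE (6.25% of variant probes, against 7.93% of all probes higher). The probe of H1-7, a germ-cell histone, was dim, at 0.0582, 0.0657, 0.0703 and 0.0485. It was not well above background on the array labelled Arp8 OE, where its signal was 1.2-fold below WT. The scanner software's error estimate for this probe was 0.255 log2 in WT and 0.324 there.

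Genes that make, process and load histones were read from 3 further lists. Of 25 probes for 17 genes of histone mRNA transcription and processing, 1 was over 2-fold lower in Arp8 KO (4.0%, against 4.35% of all probes) and none passed 2-fold in the other comparisons with WT, and the medians were -0.02, 0.05 and -0.14 in that order of cultures (Arp5 KO, Arp8 KO, labelled Arp8 OE). SLBP had scaled signals of 17.4, 15.5, 17.1 and 14.1 in culture order, so it was lowest (-0.31) where the clustered histones were highest. The NPAT probes were at -0.26 and -0.37 in Arp8 KO and at 0.12 and -0.27 on the array labelled Arp8 OE. CASP8AP2, the NPAT partner also called FLASH, stayed between -0.06 and 0.09. LSM11, a subunit of the U7 snRNP that cuts histone pre-mRNA, had 0.871, 0.787, 0.431 and 0.663 at 1 probe (-1.01 in Arp8 KO), and its dim second probe was not well above background in Arp8 KO or on the array labelled Arp8 OE.

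Of 42 probes for 25 genes of histone chaperones and exchange factors, 1 passed 2-fold, a probe of ASF1A that was lower in Arp8 KO (2.38% of the list, against 4.35% of all probes; scaled signals of 5.92, 4.10, 2.91 and 3.94, a log2 difference of -1.03). Its other probe gave -0.11. ASF1B, which hands H3 and H4 to the replication chaperone CAF-1, was at -0.09, -0.38 and -0.11. The CAF-1 subunits CHAF1A and CHAF1B were at -0.21 and -0.22 in Arp8 KO and at 0.01 and -0.25 on the array labelled Arp8 OE. Of the H3.3 chaperones, HIRA gave 0.04, 0.29 and -0.10, DAXX gave 0.20, 0.24 and 0.07, and the 2 ATRX probes lay between -0.41 and 0.35. None of these passed 1.5-fold, and some passed 2 technical SDs. SRCAP, which deposits H2A.Z, was at 0.04, 0.21 and -0.13.

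The S-phase list was read because clustered histone mRNA is made in S phase. Its 22 probes for 16 genes gave median log2 differences of -0.01, -0.25 and -0.12 in the same order. In Arp8 KO 21 of 22 were below WT (95.5%, against 47.3% of all probes), and 12 were lower at 2 technical SDs (54.5%, against 32.0%), beside 53 of 69 clustered histone probes. On the array labelled Arp8 OE 9 were above WT and 13 below, beside 66 of 69 clustered probes above. MCM2, a subunit of the replicative helicase, had scaled signals of 22.5, 7.30, 8.03 and 24.0 in culture order, and was the only S-phase probe past 2-fold. CDT1, a licensing factor, was at 0.40 and 0.56 in its 2 probes on the array labelled Arp8 OE and at -0.57 and -0.44 in Arp8 KO, and CDC6, another, was at -0.59 on the former. The share of cells in S phase was not measured in these files, and its part in the histone differences was not tested.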

How the data were processed

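Cy3-labelled RNA of 4 Nalm-6 cultures was measured on 4 Agilent arrays of 1 slide. Per the file headers, the authors used Feature Extraction 10.10.1.1 (protocol GE1_1010_Sep10, design build hg19), and the deposited values are linear intensity. The processed signal is background-subtracted and not normalized between arrays. The deposited series matrix holds the same intensity times 1 factor per array.

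Signals were divided by the 75th percentile of the array (647.4 to 739.6), outlier spots were left out and log2 was taken (Python 3.11.15, pandas 2.3.3; limma 3.58.1 for alternatives). A probe not well above background was raised to the lowest value well above background on its array if its own was lower, and its difference is then a bound. Gene names came from the RefSeq table of GRCh38.p14 by unversioned accession, matched for 27210 of 41000 probes. The number of arrays limits the precision. With 1 array per group no test was run, and counts past 2-fold and medians stand beside the same over all probes. Named genes were variants above background, clustered probes past 2-fold, the 3 highest and 3 lowest clustered probes per comparison, pathway genes past 2-fold, a fixed set of other pathway genes, and ACTR5 and ACTR8. Genes named beyond these (H2AC16, H2BC12 on the array labelled Arp8 OE, the pairs, CDT1, CDC6 and the 15 probes of Arp8 KO against the array labelled Arp8 OE) were chosen after their values were seen. The members and lists were chosen with earlier results of these data known. The code that computes the differences was tested on simulated data. A member is counted in the totals but not reported here by name.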

Additional observations from a re-analysis of the deposited data

How the results depend on the processing

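Of 272 recomputed counts and medians, 241 kept their value within 1 technical SD or, for counts, within 1.5 times and 31 moved. Of 781 differences of named probes, 704 stayed and 77 moved, 54 of them with the array labelled Arp8 OE as the reference. Some of these values could not move. The series matrix differs by 1 factor per array, so scaling it returned the main values (21 counts and medians, 93 differences). A changed background filter leaves probes well above background on both arrays as they were (92 and 93 differences stayed). Such values say nothing about stability. Under the 5 other normalizations the clustered median was 0.08 to 0.12 for Arp5 KO, -0.18 to -0.14 for Arp8 KO, and 0.52 to 0.59 on the array labelled Arp8 OE. Among these 5, the series matrix repeats the main values. With the array labelled Arp8 OE as the reference, the clustered median was -0.47, the variant median 0.017, their difference -0.49 and the count lower 2 in Arp5 KO, and -0.82, -0.06, -0.76 and 15 in Arp8 KO, so that the first 3 values of Arp5 KO changed sign. In Arp8 KO, 1 clustered probe passed 2-fold lower with cyclic loess, with normexp or with no filter, and 1 variant probe passed 2-fold higher with no filter. On the array labelled Arp8 OE, 3 clustered probes passed 2-fold without probes beside a bright spot, the variant median was -0.076 with no filter, and the clustered median exceeded the variant median by 0.62 with normexp and by 0.62 with no filter. At 1.5-fold the clustered counts were 1 (higher) and 3 (lower) for Arp8 KO; the array labelled Arp8 OE had 31 clustered probes and 1 variant probe higher. At 2 technical SDs, a threshold chosen after seeing the data, the clustered counts higher and lower were 24 and 3 for Arp5 KO, 3 and 34 for Arp8 KO, and 61 and 1 for the array labelled Arp8 OE, and the variant counts 2 and 6, 2 and 3, and 1 and 8. The cause of these shifts was not tested, other than that a lower threshold admits more probes. No paired analysis was possible because each group has 1 array. For the same reason no array could be left out. Choosing members by a symbol column was not run, since the scanner files used here have no such column.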

Other observations

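Histone genes outside the naming rule had 6 genes with a probe. H2AX, whose mRNA can end in a stem-loop or a poly(A) tail, had scaled signals of 34.6, 31.9, 27.9 and 42.5 in culture order (WT, Arp5 KO, Arp8 KO, array labelled Arp8 OE), log2 differences of -0.12, -0.31 and 0.30 from WT. H2AJ, a variant H2A, had 2.02, 2.19, 1.68 and 3.10 at its brightest probe (0.12, -0.26 and 0.62), while a dimmer probe gave -0.21, -0.14 and -0.06. CENPA, the centromeric H3 variant, gave -0.32, -0.19 and 0.01. H2AX and the brightest H2AJ probe were thus lowest in Arp8 KO and highest on the array labelled Arp8 OE, as were 50 of 69 clustered probes. The H3-4 probe was not, with 60.07, 52.55, 56.05 and 51.78 (-0.19, -0.10 and -0.21), so it was lowest on the array labelled Arp8 OE. H3-5 was also below WT there, at -0.31.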
